A study of Mus musculus with 26 samples.

Results

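Aminoacyl-tRNA synthetases are the enzymes that load each amino acid onto its tRNA before the ribosome can use it. A cytosolic set serves the ribosomes of the cytoplasm and a mitochondrial set, encoded by separate nuclear genes, serves the ribosomes inside mitochondria; Gars and Kars each supply both compartments. Several cytosolic synthetases sit together in a multi-synthetase complex held by the scaffold proteins Aimp1, Aimp2 and Eef1e1. The synthetases also fall into 2 structural classes, I and II, by the fold of their catalytic domain. Many cytosolic synthetase genes are known targets of ATF4, the transcription factor that is translated when amino acids run short and the initiation factor eIF2 is phosphorylated.

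Members were chosen by symbol: 1 capital letter followed by "ars", with or without a final 2, plus Eprs, Farsa and Farsb, with 10 or more counts in at least 3 of 26 libraries. All 37 symbols that matched met the count rule, out of 16008 genes that met it among the 31735 genes listed in every file. The 37 are 20 cytosolic genes (Gars and Kars included) and 17 mitochondrial genes, and every one was tested in every comparison. The question was whether the difference of Aars, the alanyl-tRNA synthetase, between cocaine and saline mice was shared by the rest of the family. Aars was singled out from earlier results of these data, so its own values are a description; those of the other 36 members are what the question turns on.

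The libraries came from the accumbens nucleus of adult Drd2-TRAP mice of line CP101, on an FVB/N-Swiss Webster background crossed to C57BL/6 for at least 9 generations. These mice carry Drd2-EGFP/Rpl10a, a tagged ribosomal protein under the Drd2 promoter, so an antibody against EGFP pulls down polysomes of Drd2 cells, which in the accumbens are mainly D2 medium spiny neurons with some cholinergic interneurons. All animals self-administered through an intravenous line with long access, and all groups carry the transgene. The 24 immunopurified libraries were nonescalating cocaine (n = 5), escalating cocaine (n = 2), saline (n = 3), nonescalating cocaine followed by withdrawal (n = 8, 3 in library set 1 and 5 in set 2) and saline followed by withdrawal (n = 6, 3 in each set). The 2 input libraries of total RNA were 1 nonescalating and 1 saline. Groups were taken from the titles; the description field of the nonescalating libraries says withdrawal, and the comparison that this reading implies is also given. Nothing states which libraries came from which animals, or whether animals were pooled, and the p-values therefore cover only how these libraries vary.

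The pull-downs held 1.54 to 17.5 M gene counts each (median 3.27 M), and the inputs held 37.5 M (nonescalating) and 4.70 M (saline). Drd2 was 2.46 (SE 0.71) higher in pull-downs than in inputs on the log2 scale and 9 of 10 D2 neuron markers lay above 0 in that comparison (median 1.74), while 8 of 8 D1 neuron markers (median -2.11) and 11 of 12 oligodendrocyte markers (median -2.40) lay below 0. Endothelial and mural markers were also higher in the pull-down, 13 of 13 above 0 with a median of 4.06, and their summed level was 429.8 to 10618 CPM (counts per M gene counts) in pull-downs against 217 and 469.9 CPM in inputs. Nonescalating replicate 4 had 247 CPM of Drd2, below both inputs. Saline replicate 1, nonescalating replicate 4 and nonescalating withdrawal set 2 replicate 5 were the libraries least like the others, with median Pearson correlations of log2(CPM + 2) across 16008 genes at 0.756, 0.774 and 0.772 against 0.791 to 0.875 for the other 21, and values without 1 or all of them are given beside several results.

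Per length of exon, the synthetase genes formed a broad range in the polysomes, and the median of the cytosolic genes was above that of the mitochondrial ones. Levels are CPM per kb of merged exon, as medians over the 24 immunopurified libraries. The cytosolic members had a median of 7.80 CPM per kb (1.83 to 33.4) and the mitochondrial members a median of 1.88 CPM per kb (0.243 to 229.8). Nars, the asparaginyl enzyme, led the cytosolic genes at 33.4 CPM per kb, followed by Wars (tryptophan) at 15.6, Farsb (a subunit of the phenylalanyl enzyme) at 14.99, Gars (glycine) at 13.6 and Iars (isoleucine) at 13.4 CPM per kb. The ranges of these 5 over libraries overlapped one another, so their order is not set by these levels. Aars stood 12th at 7.72 CPM per kb, with a range of 2.71 to 31.6 over libraries. The order depends on the exon length used, and the annotation behind the counts is not stated. Without division by length, the median of Aars was 71.7 CPM. That was above Iars (70.7), Wars (53.8), Gars (42.5) and Farsb (39.3) but below Nars (145.6). Of the 14 members with the highest level per kb, 13 were cytosolic. Mars2, the mitochondrial methionyl enzyme, was lowest at 0.243 CPM per kb, and 8 members, all mitochondrial, had 0 counts in at least 1 library.

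**Figure D1:**
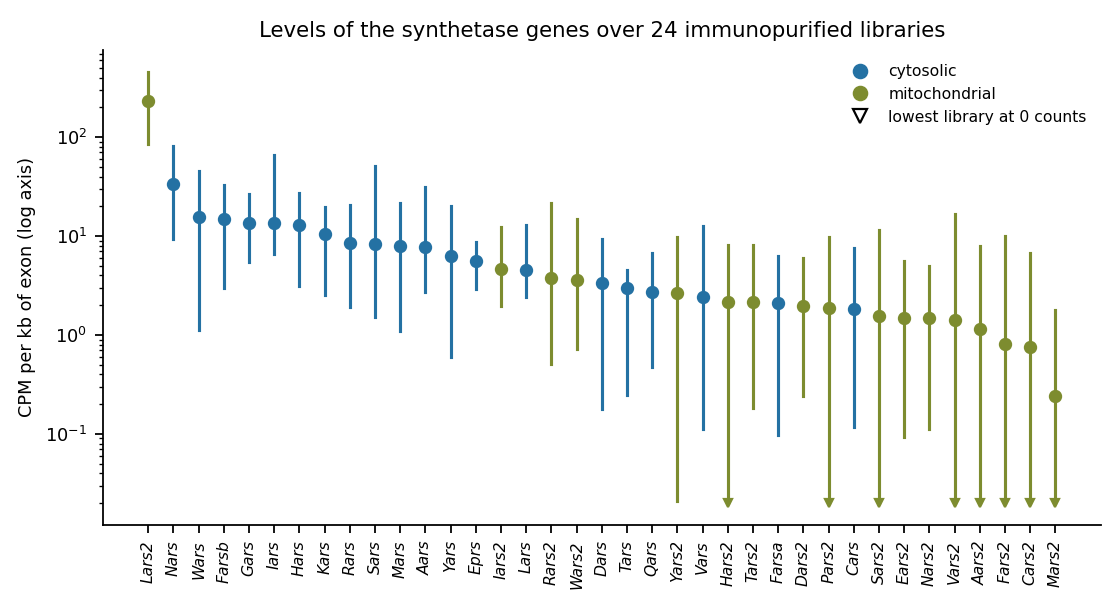
Level of each of the 37 synthetase genes in CPM per kb of merged exon on a log axis, ordered by the median over 24 immunopurified libraries; points are medians, lines run between the lowest and the highest library, and triangles mark members with 0 counts in at least 1 library. Lars2 lies above every other member and most mitochondrial genes lie in the right part of the plot.

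Lars2, the mitochondrial leucyl enzyme, departed from its set. Its median was 229.8 CPM per kb, 6.87 times that of Nars, and its lowest library (85.6 CPM per kb) was above the highest library of every other member. The gene lies on chromosome 9 at 123366927 to 123462666 on the plus strand of mm10, with 11089 merged exon bases in the GENCODE annotation. Against input it was also the member furthest above 0. The counts are given per gene, so they do not show where in these exons the reads lie. Whether all reads counted for Lars2 come from the synthetase mRNA was not tested.

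In nonescalating cocaine mice, Aars had a lower mean than in saline mice, a difference that did not pass edgeR's test across all genes. Aars had 92.0, 31.6, 25.2, 43.8 and 56.9 CPM in the 5 nonescalating libraries, against 293, 273 and 64.6 CPM in the 3 saline libraries. These rest on 80 to 785 reads per nonescalating library and 215 to 2266 per saline library. The groups overlapped through 1 library on each side: saline replicate 4 (64.6 CPM) fell below nonescalating replicate 1 (92.0 CPM), while the other 2 saline libraries lay above every nonescalating one. Means were 49.9 ± 26.5 CPM in nonescalating mice and 210.4 ± 127 CPM in saline mice (SD, n = 5 and 3), and the log2 fold change was -2.07 (SE 0.45). It had the second-smallest p of 15854 genes, yet the adjusted p was 0.506 (edgeR's quasi-likelihood test, Benjamini-Hochberg). DESeq2's Wald test gave -2.01 with an adjusted p of 0.00853, while limma voom with quality weights gave -1.33 with an adjusted p of 0.9995. Without saline replicate 4 the value was -2.50 and without saline replicate 1 it was -1.76, and without the 3 libraries least like the others it was -1.70. In bulk polysome RNA, fewer Drd2 cells and less of the mRNA per cell cannot be told apart. In the same comparison Drd2 was at -0.38 (SE 0.44), and the D2 neuron markers summed to 1372 to 9832 CPM (median 5231) in nonescalating mice and 4421 to 10633 CPM (median 5465) in saline mice.

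**Figure D2:**
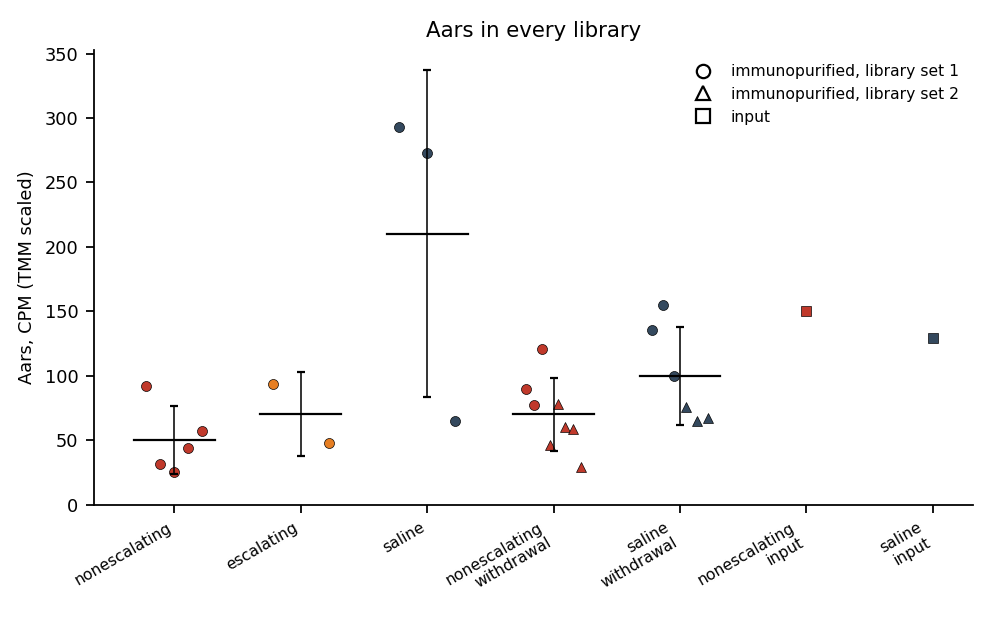
Aars in CPM scaled with TMM factors in each of the 26 libraries, by group; circles are immunopurified libraries of set 1, triangles those of set 2 and squares inputs, with bars for the mean ± SD where a group has more than 1 library. Saline replicates 1 and 3 (293 and 273 CPM) lie above all other libraries, and saline replicate 4 (64.6 CPM) lies within the nonescalating range.

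Aars lies on chromosome 8 at 111033144 to 111057664 on the plus strand of mm10 (18 merged exons, 9282 bases). It shares 1326 exon bases, 14.3% of its own, with Exosc6 on the same strand, and how the authors' counting split those reads is not stated. Exosc6, a subunit of the RNA exosome, had a log2 fold change of -0.66 (SE 1.54) in the same comparison and 0 to 12.6 CPM in immunopurified libraries without withdrawal. Exon overlap with a gene on the opposite strand occurs in 14 members, mostly over short stretches; the longest is 2034 bases between Iars2 and Rab3gap2. The strand setting of the counting is not given, so reads of such pairs cannot be told apart.

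The other 36 members of the family were spread on both sides of 0 in nonescalating mice. No member passed the adjusted threshold of 0.05 in edgeR, against 0% of all 15854 genes, while DESeq2 called 34 of 15592 genes, of which Aars was the 1 member. Of the 37 members 20 were below 0, with a median log2 fold change of -0.075, and without Aars the median was -0.057 with 19 of 36 below 0; over all genes 49.4% were below 0 with a median of 0.010. The lowest of the others was Pars2 (mitochondrial proline) at -1.63 (SE 1.03) and the highest Vars2 (mitochondrial valine) at 1.67 (SE 1.33). Since Aars was picked for its low value in these libraries, that it lay below the other 36 follows largely from that choice. Precision limits what single members can show: the median SE of the other members was 0.81, and 8 of them had an SE under 0.6. Eprs, the fused glutamyl and prolyl enzyme and the most precisely measured, was at -0.14 (SE 0.38), with 54.4 to 114 CPM in nonescalating mice and 52.4 to 158 CPM in saline mice.

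An unadjusted p under 0.05 was reached by 3 members, Aars, Nars and Sars, all lower in nonescalating mice. Aars was picked for its low value, so only Nars and Sars, of the other 36 members, can be set beside 3.19% of all genes. Nars had 51.9, 65.7, 174.9, 93.7 and 97.6 CPM in nonescalating mice, against 241, 358 and 123 CPM in saline mice. It was at -1.32 on the log2 scale (SE 0.47, adjusted p = 0.719), and the groups overlapped through nonescalating replicate 3 and saline replicate 4. Sars, the seryl enzyme, had 14.6, 25.7, 33.3, 76.5 and 62.6 CPM in nonescalating mice, against 262, 53.3 and 21.3 CPM in saline mice. It was at -1.40 on the log2 scale (SE 0.68, adjusted p = 0.734), and 1 library decided it: without saline replicate 1 the value was 0.18, and without the 3 libraries least like the others it was -0.12. In none of the 37 members did every nonescalating library lie below every saline library, which held for 1.18% of all genes, nor above, which held for 1.24%.

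**Figure D3:**
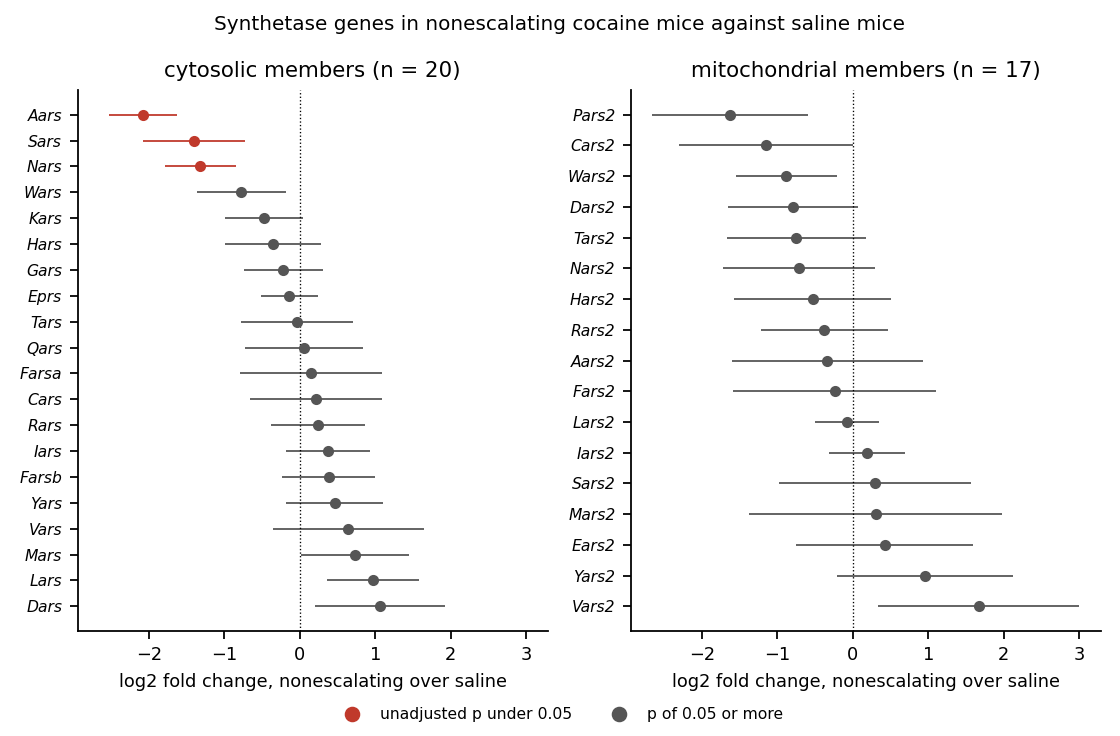
Log2 fold change of each member in nonescalating over saline mice, with cytosolic members in the left panel and mitochondrial members in the right; points are edgeR estimates and bars are 1 SE. Aars, Sars and Nars, the members with an unadjusted p under 0.05, stand at the top of the cytosolic panel at -2.07, -1.40 and -1.32, and the rest scatter on both sides of 0.

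By role, the share of members below 0 differed from one set to the next. The 8 members of the multi-synthetase complex (Dars, Eprs, Iars, Kars, Lars, Mars, Qars and Rars) had a median of 0.31, and 2 of them, Kars at -0.47 and Eprs at -0.14, were below 0. The 12 cytosolic members outside the complex had a median of -0.13 with 7 below 0, and Aars, Nars and Sars are all among them. The 17 mitochondrial members had a median of -0.34 with 11 below 0, and none of them reached an unadjusted p of 0.05. Of the 18 class I enzymes 5 were below 0 (median 0.27), and of the 18 class II enzymes, which include Aars, Nars and Sars, 14 were below 0 (median -0.41); Eprs holds both classes and was left out. The mitochondrial counterpart Aars2 was at -0.34 (SE 1.26). The 11 members other than Aars that are known ATF4 targets had a median of -0.038 with 6 below 0. Aars, picked for its low value, is counted in the set outside the complex and in class II, so their counts below 0 include it by choice. Over all genes the median was 0.010. These are counts over genes of the same libraries and carry no test.

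The promoter of Aars holds 2 copies of a short element bound by ATF4 with C/EBP partners, and the other members that hold 1 copy are shown beside it. The element searched was TGATGNAA on either strand, in RefSeq promoters of build GRCm38.p6 that run from 250 bases before the gene start to 50 after it. Of the 37 members 26 had a promoter entry, and 5 of these (19.2%) held the element, against 1304 of 32851 promoters in all (3.97%). Members were counted by symbol and the total by promoter entry, so the shares rest on unlike units. Those without an entry, Nars, Wars, Mars, Cars and Lars among them, were not searched. In Aars the matches begin 112 bases before the start and 9 bases after it, and the first 280 bases of its promoter, chr8:111033592-111033871 on the plus strand, are printed with both matches in capitals. That start is the RefSeq one, and the printed stretch lies within the longer GENCODE span of Aars given above. Stretches around the single match are printed for Gars (chr6:55037945-55038004, plus strand), Iars (chr13:49682111-49682159, plus), Tars (chr15:11399640-11399699, minus) and Yars (chr4:129189880-129189932, plus). A match is a description of the letters, not evidence of binding in these cells.
Aars: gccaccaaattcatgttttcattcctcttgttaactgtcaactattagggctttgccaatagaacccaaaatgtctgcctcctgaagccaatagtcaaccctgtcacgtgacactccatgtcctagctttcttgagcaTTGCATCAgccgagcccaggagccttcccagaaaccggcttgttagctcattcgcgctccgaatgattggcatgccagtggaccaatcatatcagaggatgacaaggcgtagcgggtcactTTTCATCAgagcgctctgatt
Gars: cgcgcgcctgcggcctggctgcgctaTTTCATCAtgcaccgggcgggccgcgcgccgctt
Iars: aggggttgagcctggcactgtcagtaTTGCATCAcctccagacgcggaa
Tars: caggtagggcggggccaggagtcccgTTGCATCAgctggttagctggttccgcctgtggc
Yars: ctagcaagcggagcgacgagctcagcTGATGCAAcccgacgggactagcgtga

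The 4 other genes with the element had estimates between -0.22 and 0.46. Gars had 83.2, 41.9, 43.1, 32.4 and 28.0 CPM in nonescalating mice against 67.0, 57.5 and 35.4 CPM in saline mice, a log2 fold change of -0.22 (SE 0.52). Iars had 67.6, 104, 229.9, 46.4 and 134 CPM in nonescalating mice against 62.6, 122 and 85.0 CPM in saline mice, with a log2 fold change of 0.37 (SE 0.56). The groups overlapped widely in both genes. Tars, the threonyl enzyme, had 7.23 to 24.6 CPM in nonescalating mice and 10.5 to 20.01 CPM in saline mice, with a log2 fold change at -0.038 (SE 0.74). Yars, the tyrosyl enzyme, had 22.4 to 119 CPM in nonescalating mice and 23.1 to 49.8 CPM in saline mice, a log2 fold change of 0.46 (SE 0.64). The median over the 4 was 0.17, and over the 21 members with a promoter entry and no element it was -0.075.

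**Figure D4:**
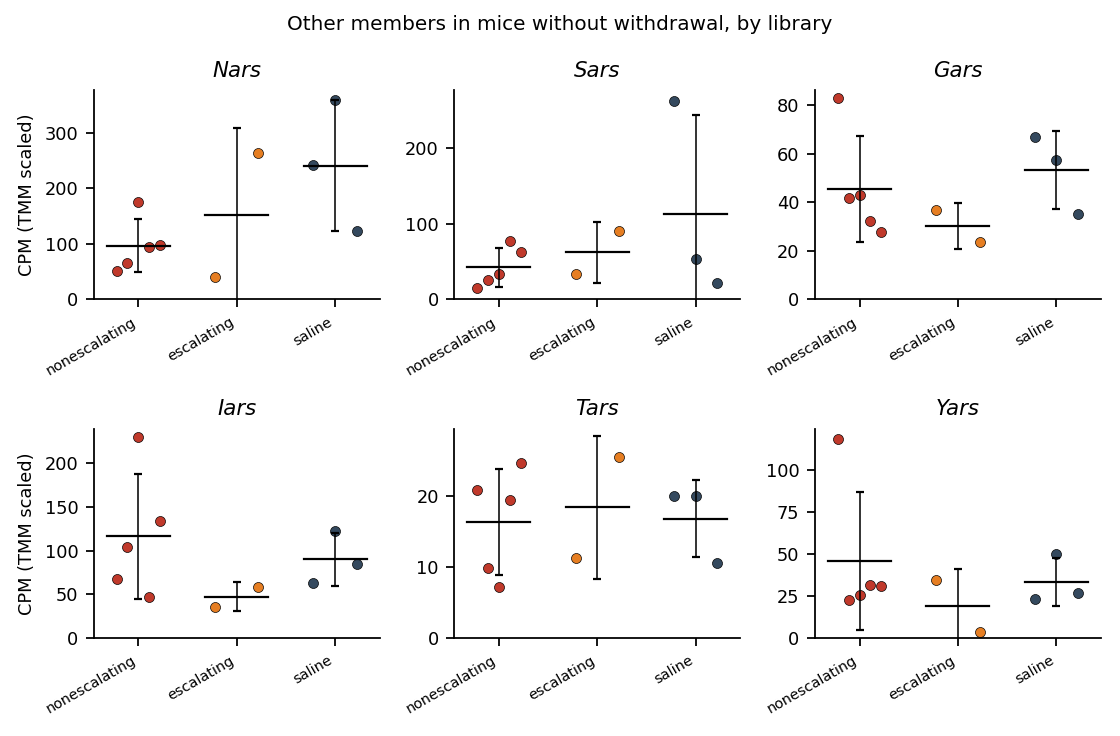
Levels in CPM of Nars, Sars and the 4 other members with the promoter element in nonescalating, escalating and saline libraries without withdrawal; each point is a library and bars are the mean ± SD, cut at 0. Nars and Sars have their highest saline libraries at 358 and 262 CPM, while for Gars, Iars, Tars and Yars the nonescalating points span the saline points.

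Genes around the synthetases were read from lists of the same pathway. None of the genes on them passed the adjusted threshold in nonescalating mice. Of 26 genes of the ATF4 programme outside the synthetases 10 were below 0 (median 0.082), with an unadjusted p under 0.05 for 1 higher and 2 lower, beside 3.54% of all genes higher and 3.19% lower. Atf4 itself was at 0.061 (SE 0.49) and Asns, the asparagine synthetase and a standard ATF4 target, at -0.28 (SE 0.62). Shmt2, the mitochondrial serine hydroxymethyltransferase, averaged 24.2 ± 14.1 CPM in nonescalating mice and 3.17 ± 3.02 CPM in saline mice (log2 fold change 2.93, SE 1.01, adjusted p = 0.719). Atf3, another factor of the stress programme, had counts in few libraries, with 0 to 0.474 CPM in nonescalating mice and 0 to 18.4 CPM in saline mice.

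Among 16 genes for eIF2, its kinases and their regulators, its phosphatases and its exchange factor eIF2B, 6 were below 0 (median 0.19). Eif2b4, the delta subunit of eIF2B, averaged 15.9 ± 9.99 CPM in nonescalating mice and 0.930 ± 0.534 CPM in saline mice (log2 fold change 4.08, SE 1.12, adjusted p = 0.719). In the saline libraries 3 counts were 0.316 to 0.956 CPM, so that saline mean rests on few reads. Eif2b2, the beta subunit of eIF2B, was at 2.37 (SE 1.03, adjusted p = 0.719). Impact, an inhibitor of the eIF2 kinase GCN2, was at -0.74 (SE 0.35, adjusted p = 0.722).

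In the other lists, too, no gene passed. Of 15 genes for tRNA handling and proofreading 3 were below 0 (median 0.61), led by Elac2, which trims tRNA 3′ ends, at 2.43 (SE 0.95, adjusted p = 0.719), and Prorsd1 at 3.15 (SE 1.62). Of the 3 scaffold genes 2 were below 0, Aimp1 at -0.63 (SE 0.93) and Eef1e1 at -0.82 (SE 1.46). Elongation factors had 7 of 13 below 0 (median -0.012), with Eef1a2 at -0.71 (SE 0.48) and Eef2 at -0.48 (SE 0.35). Amino acid transporters had 5 of 13 below 0 (median 0.12), with Slc3a2, the heavy chain of several transporters, at 1.02 (SE 0.62), and mTORC1 genes had 11 of 20 below 0 (median -0.076).

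Markers of other cells were read in the same comparison, since the pull-down can carry their RNA. Of 12 oligodendrocyte markers 11 were above 0 (median 0.80), with summed levels of 415 to 3588 CPM in nonescalating mice and 473 to 3083 CPM in saline mice. Of 10 astrocyte markers 9 were above 0 (median 0.52), with sums of 174 to 692 CPM in nonescalating mice and 213 to 398 CPM in saline mice. Of 8 nuclear RNAs 7 were above 0 (median 0.70), with sums of 11598 to 84741 CPM in nonescalating mice and 9942 to 39546 CPM in saline mice. Microglia markers summed to 13.2 to 116 CPM (median 51.2) in nonescalating mice and 20.01 to 458 CPM (median 119) in saline mice. Endothelial and mural markers, which were higher in pull-downs than in inputs, summed to 1631 to 8570 CPM (median 6192) in nonescalating mice. In saline mice they summed to 1762 to 10618 CPM (median 4946). No marker on the lists up to here was at 0 in every library of either group. D1 neuron markers summed to 74.2 to 163 CPM in nonescalating mice and 121 to 165 CPM in saline mice. The sums were 11.3 to 78.9 CPM against 19.2 to 37.7 CPM for cholinergic interneuron markers. Of these 8 markers, 1 was at 0 in every nonescalating library and 1 in every saline library. For GABA interneuron markers the sums were 29.0 to 204 CPM against 87.0 to 251 CPM. In every saline library 2 of these 8 markers were at 0. The part of these other cells in the result was not tested.

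Escalating cocaine mice, of which there were 2 libraries, showed Aars in the same direction as nonescalating mice. Aars had 93.5 and 47.5 CPM in escalating mice, against 293, 273 and 64.6 CPM in saline mice (log2 fold change -1.58, SE 0.60, adjusted p = 0.614). No member passed, against 0% of all genes. Aars was the 1 member with an unadjusted p under 0.05 that was lower (4.93% of all genes), and Dars, the aspartyl enzyme, the 1 that was higher (3.17% of all genes). Since Aars was picked, only Dars counts for the family. Dars had 13.2 and 40.8 CPM in escalating mice, against 8.43, 1.69 and 6.61 CPM in saline mice (log2 fold change 2.28, SE 1.02, adjusted p = 0.614). With 2 libraries against 3, groups that did not overlap were common: both escalating libraries lay above all saline ones in 2 members, Dars and Rars (7.37% of all genes), and below them in 3, Farsa, Iars and Iars2 (6.67%). Wars2, the mitochondrial tryptophanyl enzyme, followed by p, with 4.33 and 17.4 CPM in escalating mice against 80.8, 11.9 and 15.9 CPM in saline mice (log2 fold change -1.74, SE 0.91), and it was at -0.36 without saline replicate 1. The family median was -0.42 against -0.084 for all genes, and it was 0.012 without saline replicate 1. Both cocaine groups were set against the same 3 saline libraries, so these values and those of nonescalating mice are not independent.

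Between escalating and nonescalating mice, the 3 members with the smallest p were Kars, Iars and Fars2, and none passed (0% of all genes did). Kars had 61.5 and 88.7 CPM in escalating mice, against 49.8, 36.4, 11.3, 31.2 and 26.5 CPM in nonescalating mice. The log2 fold change was 1.27 (SE 0.57, adjusted p = 0.558). Kars was the 1 member with both escalating libraries above all nonescalating ones (5.04% of all genes), and Iars2 the 1 with both below them (4.02%). Kars was also the 1 member higher at an unadjusted p under 0.05, beside 3.44% of all genes. Iars had 35.7 and 58.8 CPM in escalating mice, against 67.6, 104, 229.9, 46.4 and 134 CPM in nonescalating mice, and both escalating libraries lay below all but 1 of the nonescalating ones (-1.30, SE 0.68). Fars2, the mitochondrial phenylalanyl enzyme, had 56.9 and 0 CPM in escalating mice and 1.26 to 8.53 CPM in nonescalating mice, so its value of 2.68 (SE 1.44) came from 1 library. The family median was 0.15 against -0.12 for all genes, and it was -0.18 without escalating replicate 1 and -0.30 without replicate 2. Median-of-ratios scaling moved the median of all genes to -0.26 and that of the family to 0.020.

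After withdrawal, no member differed past the threshold between cocaine and saline mice, and the groups overlapped for Aars. Aars had 28.8 to 120.5 CPM (median 68.8) in 8 nonescalating withdrawal libraries and 64.8 to 155 CPM (median 87.8) in 6 saline withdrawal libraries (log2 fold change -0.39, SE 0.34, adjusted p = 1.0). The level differed by library set: it was 77.2 to 120.5 CPM against 99.6 to 155 CPM in set 1, and 28.8 to 78.0 CPM against 64.8 to 76.0 CPM in set 2, in nonescalating withdrawal against saline withdrawal. Within the sets the log2 fold changes were -0.39 in set 1 and -0.31 in set 2. No member passed (0% of all genes), and none reached an unadjusted p under 0.05 on the lower side, beside 0.902% of all genes. Of the 37 members 21 were below 0, with a median of -0.050 against 0.049 for all genes.

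The 3 members with the smallest p after withdrawal were Iars2, Farsa and Hars2, all lower in nonescalating mice. Iars2, the mitochondrial isoleucyl enzyme, had 17.5 to 48.4 CPM (median 35.9) in nonescalating withdrawal mice and 31.9 to 109.8 CPM (median 42.6) in saline withdrawal mice (-0.69, SE 0.37). Farsa, a subunit of the cytosolic phenylalanyl enzyme, had 1.56 to 14.5 CPM (median 7.59) in nonescalating withdrawal mice and 3.81 to 28.8 CPM (median 17.1) in saline withdrawal mice (-1.17, SE 0.69). Hars2, the mitochondrial histidyl enzyme, had 0 to 20.2 CPM (median 6.15) in nonescalating withdrawal mice and 6.66 to 34.8 CPM (median 11.1) in saline withdrawal mice (-1.13, SE 0.78). The groups overlapped in all 3, and each adjusted p was 1.0. No member lay wholly below its saline withdrawal group (0.0126% of all genes did) or wholly above it (0.0189%).

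Averaged over both times, nonescalating cocaine was set against saline in 1 fit. Aars was at -1.23 (SE 0.28, adjusted p = 0.670), and DESeq2 gave -1.18 with an adjusted p of 0.0262. No member passed in edgeR (0% of all genes). Aars and Nars had an unadjusted p under 0.05 on the lower side, beside 2.55% of all genes. Nars was at -0.66 (SE 0.30, adjusted p = 0.693), and since Aars was picked, only Nars counts for the family. Sars was at -0.78 (SE 0.43), and at 0.015 without saline replicate 1. The family median was -0.11 against 0.053 for all genes.

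The cocaine effect with withdrawal minus that without was tested as its own contrast. Aars had a difference of 1.68 (SE 0.57, adjusted p = 0.972), Nars 1.31 (SE 0.60, adjusted p = 0.977) and Pars2 2.20 (SE 1.31, adjusted p = 1.0). No member passed (0% of all genes). Aars and Nars had an unadjusted p under 0.05 on the higher side, beside 2.66% of all genes. Since Aars was picked, only Nars counts for the family here. Nars after withdrawal had 75.4 to 205 CPM (median 158) in nonescalating mice and 66.9 to 224 CPM (median 150.2) in saline mice, with a log2 fold change of -0.0039. Pars2 had 5.27, 5.51, 4.40, 6.85 and 3.32 CPM in nonescalating mice without withdrawal, against 13.3, 30.3 and 3.60 CPM in saline mice; after withdrawal its range was 3.86 to 13.2 CPM in nonescalating mice and 0 to 6.62 CPM in saline mice. The family median of the difference was 0.020 against 0.074 for all genes.

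**Figure D5:**
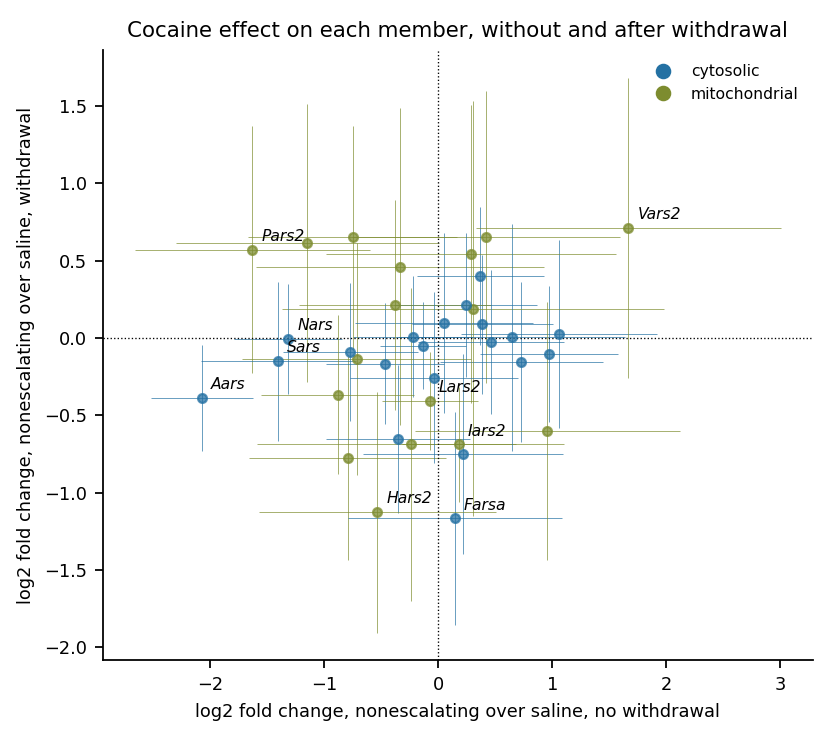
Log2 fold change of nonescalating cocaine over saline for each member, without withdrawal on the horizontal axis and after withdrawal on the vertical axis, in log2 units; points are edgeR estimates, lines are 1 SE in each direction, and colours give the compartment. Aars sits furthest left at -2.07 and at -0.39 on the vertical axis, and the remaining members spread around 0 on both axes.

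Withdrawal itself was compared within each agent. In saline mice, Cars2, the mitochondrial cysteinyl enzyme, had 1.68 to 6.48 CPM (median 3.54) after withdrawal, against 22.9, 49.1 and 5.71 CPM without it (log2 fold change -3.06, SE 1.23, adjusted p = 0.742). Rars2, the mitochondrial arginyl enzyme, had 1.4 to 14.6 CPM (median 8.08) after withdrawal, against 60.1, 6.51 and 11.1 CPM without it (-1.77, SE 0.84, adjusted p = 0.744), so its mean in saline mice rested on replicate 1, without which the value was -0.21. Wars2 followed at -1.34 (SE 0.69), and at 0.040 without saline replicate 1. No member passed (0% of all genes), and Cars2 and Rars2 had an unadjusted p under 0.05 on the lower side, beside 3.97% of all genes. Aars was at -0.72 in this comparison, and at 0.0065 with limma voom.

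In nonescalating mice, Lars2 had 949 to 3607 CPM (median 2020.2) after withdrawal, against 5085, 1798, 3093, 1459.6 and 4305 CPM without it (log2 fold change -0.94, SE 0.40, adjusted p = 1.0). The groups overlapped. Aars, with the values given above, was at 0.96 (SE 0.42, adjusted p = 1.0). Rars, the arginyl enzyme of the complex, had 10.1 to 66.2 CPM (median 36.4) after withdrawal, against 15.5, 29.4, 24.8, 26.6 and 6.16 CPM without it (1.07, SE 0.57). No member passed (0% of all genes). Lars2 alone was lower at an unadjusted p under 0.05 (1.58% of all genes) and Aars alone was higher (1.2% of all genes). Aars was picked for its low value in these nonescalating libraries, so its rise from them follows in part from that choice. Only Lars2 counts for the family here. Saline withdrawal and nonescalating withdrawal share library set 2, which holds no library without withdrawal, so only the withdrawal groups inform the term for library set.

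Taking the description field of the nonescalating libraries at its word changes the saline group they belong with. Against the 3 saline withdrawal libraries of set 1 (136, 155 and 99.6 CPM), Aars in the same 5 nonescalating libraries was at -1.40 (adjusted p = 1.0) and Nars at -0.41, and the family median was -0.16. In this pairing every nonescalating library lay below the 3 saline withdrawal ones in 2 members, Aars and Rars (1.47% of all genes), and above them in none (0.99%). Aars was picked for its low value in these 5 nonescalating libraries, so only Rars counts for the family.

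Against total input RNA, the members ran from -1.10 (Dars) to 1.69 (Lars2) on the log2 scale. Across 8 immunopurified libraries Lars2 averaged 3216 ± 1400 CPM (SD, n = 8), and 8 of 8 were above both inputs, at 1051.5 CPM in the nonescalating input and 936 CPM in the saline input. The log2 fold change was 1.69 (SE 0.56, adjusted p = 0.262), and DESeq2 gave 1.76 with an adjusted p of 0.00795. As stated above, the source of the reads counted for Lars2 was not tested. No member passed in edgeR, while 0.255% of 14929 genes did, and Lars2 was the 1 member with an unadjusted p under 0.05 on the higher side, beside 6.05% of all genes. Mars, the methionyl enzyme, was at -0.95 (SE 0.75), with 7 of 8 pull-downs below both inputs (55.2 and 40.9 CPM). Aars was at -0.77 (SE 0.62), with 6 of 8 pull-downs below both inputs (151 and 130 CPM), and it was 0.69 without the nonescalating input. Cytosolic members had 14 of 20 below 0 (median -0.41) and mitochondrial members 6 of 17 (median 0.40), and the median of all genes was 0.072. With 1 input per agent, the spread between inputs rests on these 2 libraries.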

How the data were processed

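RNA was sequenced from 24 immunopurified and 2 input libraries. The authors deposited raw read counts per gene symbol, 1 library per file, as whole numbers without normalization. STAR 2.0.0e, HTSeq and mouse build mm10 were used, per the submitters' processing notes. For the HTSeq version, the annotation and the strand setting, the sources used here state nothing. Rows that name no gene entered neither library sizes nor tests: reads in no feature (29.7% to 62.5% of all records in pull-downs), reads with several alignments (6.52% to 41.2%) and the rest of the HTSeq summary. The 31735 genes listed in all files were used, of 32657 in set 1 files and 32531 in set 2 files.

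Tests used R 4.3.3 with edgeR 4.0.16 (quasi-likelihood test with robust estimation, TMM factors, and filterByExpr at 10 counts), limma 3.58.1 and DESeq2 1.42.0. The main model held all 24 immunopurified libraries, with terms for group and for library set (15854 genes). A second model, for the input comparison, held 8 immunopurified libraries and both inputs, with a term for agent (14929 genes). Adjusted p-values are Benjamini-Hochberg over all genes tested, with a threshold of 0.05. SE is the size of the log2 fold change over the square root of F. Levels are CPM with TMM factors, and levels per kb use merged exons of GENCODE M21 on mm10. In the shallowest immunopurified library 3 counts were 1.95 CPM, so a member at that level rests on a handful of reads.

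Members, gene lists and alternatives were chosen with earlier results of these data known. Named were Aars, the 3 members with the smallest p in each comparison, and in the lists the 2 genes with the smallest p in nonescalating against saline or in the mean effect; only part of these are printed. Atf4, Asns, Exosc6, Eprs, Aars2 and the 4 genes with the promoter element were named after their values were seen. Libraries of 1 group differed by at least 20.4 in chi-square per degree of freedom over 57 pairs, so none was counted as a repeat. Alternatives were DESeq2, limma voom, median-of-ratios scaling, other filters, other sets of libraries, the replicate number as a block and each library left out in turn.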

Additional observations from a re-analysis of the deposited data

Results flagged for a closer look

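In 51 groups of 4 to 10 libraries (17 members examined), 7 values lay far from the rest of their group by Dixon's criterion, which chance gives in about 1 in 20 groups. In nonescalating withdrawal mice, Dars had 0.779 CPM in set 2 replicate 5 against 11.8 to 25.6 CPM in the others, and Mars had 5.45 CPM in the same library against 19.1 to 50.8 CPM. That library is 1 of the 3 least like the others. Nars had 75.4 CPM in set 2 replicate 4 of that group against 132 to 205 CPM, and Rars2 had 2.16 CPM in set 1 replicate 2 against 8.03 to 15.7 CPM. In saline withdrawal mice, Iars had 131.5 CPM in set 1 replicate 2 against 52.6 to 72.4 CPM, and Rars had 10.9 CPM in set 2 replicate 2 against 28.1 to 41.2 CPM. Pars2 had 0 CPM in set 1 replicate 1 of that group against 3.27 to 6.62 CPM. No value of Aars was among the 7. Saline (n = 3) and escalating (n = 2) libraries without withdrawal were too few to be examined, so the saline values of Aars could not be flagged.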

How the results depend on the processing

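Of 189 alternative values of the family median 185 stayed within 1 SD of the spread between replicates (0.274), and of 189 counts of members called 186 stayed at 0. With DESeq2 the count was 1 in nonescalating against saline (Aars, -2.01), beside 34 of 15592 genes in all. It was 1 in the mean cocaine effect (Aars, -1.18), beside 20 of 15592 genes, and 1 against input (Lars2, 1.76), beside 757 of 14620 genes. In the main fits 0% of all genes passed in every comparison but that against input (0.255%), so a family count of 0 there was no different from that of other genes. The counts at an unadjusted p under 0.05 moved in 60 of 189 cases, from 0 to 6 members. The family median in escalating against saline was 0.019 without libraries 1806, 1813 and 1843 (saline replicate 1, nonescalating replicate 4 and nonescalating withdrawal set 2 replicate 5) and ran from -0.49 to 0.012 with each library left out in turn. In escalating against nonescalating it ran from -0.30 to 0.24. Of the named members, 9 values of 626 changed sign. With each library left out, Sars ran from -1.89 to 0.18 in nonescalating against saline and from -1.02 to 0.015 in the mean effect. Aars ran from -0.072 to 0.91 and Fars2 from -7.45 to 3.68 in escalating against nonescalating, Wars2 from -1.73 to 0.040 in saline withdrawal against saline, and Aars from -1.63 to 0.69 against input. Wars2 was 0.047 there with no library set term and 0.086 without the 3 libraries, and Aars was 0.0065 with limma voom; the cause was not tested.

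With the replicate block, Aars in nonescalating against saline was -1.97 (adjusted p = 0.957). No member passed in any comparison between pull-down groups, and neither did any other of the 15854 genes. Libraries with the same number correlated at -0.165 to 0.284 over 53 pairs (median 0.026), of which 14 were over 0.1. Libraries with different numbers correlated at -0.312 to 0.264 over 190 pairs (median 0.00073), of which 38 were over 0.1. In groups of as few as 2 libraries such correlations cannot show or exclude pairing, and the main model held no term for the number. Over all alternatives Aars in that comparison ran from -2.50 to -1.33, with an adjusted p of 0.0641 without saline replicate 4 and 0.00853 under DESeq2.

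Of the mitochondrial members 8 had 0 counts in at least 1 library. These libraries include escalating replicate 1, the deepest pull-down at 17.5 M counts, where Cars2 had 0.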
